A study of Mus musculus with 56 samples.

Results

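Kidney and liver of C57BL/6 mice were compared by what their ribosomes were reading, in 10 libraries of ribosome footprints from kidney and 18 from liver, chosen by the tissue and the kind of library in their labels, out of 56 libraries in the series. The kidney libraries were labelled 3 months (4 libraries), 20 months (3) and 32 months (3). The liver libraries bore 6 age labels with 3 libraries each, namely 1 and 3 months, 11 and 20 months, and 26 and 32 months, and the libraries labelled 11 months carry another age in their titles. All mice are of one strain, and the labels name no genotype, treatment or sex. Kidneys came from the same mice as livers, per the series' description, which counts 3 animals per age and 2 at 32 months, so n below is a number of libraries, not of animals. Frozen pieces of whole organ were lysed, so every cell type of the organ contributed.

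A ribosome footprint is the short stretch of messenger RNA that a ribosome shields from nuclease, and the number of footprints on a gene follows both the amount of its messenger RNA and the number of ribosomes on each copy. Hepatocytes make most proteins of blood plasma, turn ammonia into urea, make bile acids and store glycogen. The kidney filters plasma in the glomerulus and recovers salt, water, glucose and amino acids along a tubule of distinct segments (proximal tubule, loop of Henle, distal tubule and collecting duct). Both organs release glucose, oxidise fat and clear foreign compounds. In whole tissue, fewer cells of a type and less RNA per cell cannot be told apart.

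Total counts ran from 10388818 to 30517983 per kidney library and from 7985755 to 26921222 per liver library. Levels are given as CPM, the counts per 1000000 counts of a library after scaling by TMM, which corrects for the few very abundant genes of each organ. Libraries of one organ correlated closely over all genes tested, and 2 libraries stood apart. The second kidney library labelled 3 months had a mean correlation with the other kidney libraries of 0.904 (log2 levels), against 0.976 to 0.982 for the others. The first liver library labelled 3 months had 0.933, against 0.964 to 0.980 for the others. That kidney library gave 2.43% of its counts to 38 proximal tubule markers, where the other kidney libraries gave 5.82% to 8.10%. It was also low in lists not particular to the tubule. Mitochondrially encoded proteins took 0.344%, against 2.02% to 3.54%, and nuclear subunits of oxidative phosphorylation 0.926%, against 2.12% to 2.33%. It was high in cytosolic ribosomal proteins, with 1.46% against 0.949% to 1.21%, and in translation factors, with 1.33% against 0.948% to 1.02%. That liver library gave 0.771% to 24 macrophage markers, against 0.0612% to 0.327% in the other liver libraries, and 0.126% to 16 B and plasma cell markers, against 0.00122% to 0.0501%. Correlations between a kidney and a liver library were lower, from 0.549 to 0.658.

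The tissue labels held for the marker genes. Kap, a secreted androgen-regulated protein of the proximal tubule, had 749.7 to 17707 CPM (median 13794) in kidney, against 0 to 15.3 CPM (median 0.131) in liver. Umod, the urinary glycoprotein of the thick ascending limb, had 1654 to 5068 CPM (median 3581) in kidney, against 0 to 2.35 CPM (median 0) in liver, and Slc34a1, the main phosphate carrier of the proximal tubule, had 2633 to 6411 CPM (median 5550.01) in kidney, against 0 to 4.93 CPM (median 0.0713) in liver. No kidney library came near the liver range in any of these genes, although the kidney library that stands apart held the lowest Kap value. Alb, serum albumin, had 6.94 to 96.7 CPM (median 13.7) in kidney, against 28992 to 152879 CPM (median 82014) in liver. Apoa1, the main protein of high-density lipoprotein, had 0.651 to 8.62 CPM (median 1.29) in kidney, against 5105 to 12320.5 CPM (median 7228) in liver. Ttr, the plasma carrier of thyroxine and retinol-binding protein, had 6.59 to 83.0 CPM (median 38.0) in kidney, against 1399 to 8373 CPM (median 6045) in liver, and was the liver marker with the smallest difference. The liver library that stands apart held the lowest Alb and Ttr values, and the lowest of the other liver libraries were 53952 CPM for Alb and 3521 CPM for Ttr. All 6 markers were called by edgeR's quasi-likelihood test with Benjamini-Hochberg adjustment, with log2 differences, kidney over liver, of 13.54 ± 0.89 (SE) for Kap, 13.69 ± 0.55 for Umod, 13.59 ± 0.63 for Slc34a1, −11.75 ± 0.59 for Alb, −11.31 ± 0.56 for Apoa1 and −7.10 ± 0.40 for Ttr. The largest of these 6 adjusted p-values was 1.04e-14, for Kap.

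**Figure D1:**
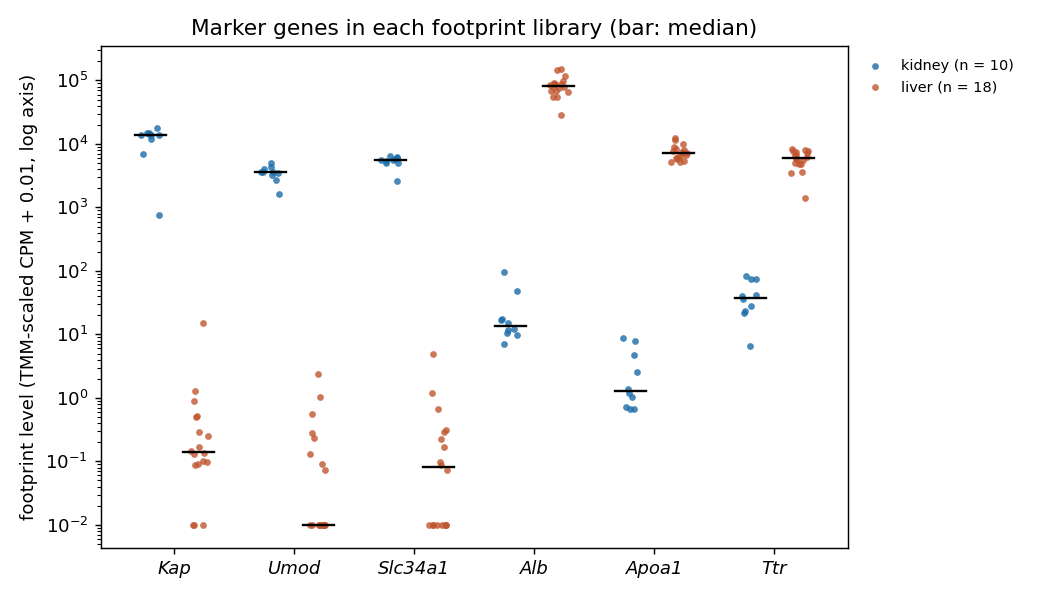
Footprint level of the 6 marker genes in each library, in CPM plus 0.01, on a log axis; each point is 1 library, kidney (10) to the left of liver (18) for every gene, and the bar is the median. The kidney and liver points are fully separated in all 6 genes, and the lowest Kap point among the kidney libraries lies at 749.7 CPM.

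Promoters of 5 genes are printed from RefSeq (GRCm38.p6), to show the start regions of genes read in one organ or in both: Kap and Slc34a1, read in kidney, Alb and Fabp1, read in liver, and G6pc, read in both. Each run is the 250 bases before the start, 5′ to 3′ on the gene's strand. Capitals mark matches on either strand to the letters CAAAGTCCA (HNF4), TTGCNNAA (C/EBP), TCAAGGTCA (ERR) or TATAAA (the TATA box).
Kap (chr6:133853668-133853917, minus strand): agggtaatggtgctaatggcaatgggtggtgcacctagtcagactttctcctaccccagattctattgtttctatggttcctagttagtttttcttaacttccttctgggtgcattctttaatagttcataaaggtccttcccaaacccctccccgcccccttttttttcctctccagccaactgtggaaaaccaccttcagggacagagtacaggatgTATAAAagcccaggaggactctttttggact
Slc34a1 (chr13:55399398-55399647, plus strand): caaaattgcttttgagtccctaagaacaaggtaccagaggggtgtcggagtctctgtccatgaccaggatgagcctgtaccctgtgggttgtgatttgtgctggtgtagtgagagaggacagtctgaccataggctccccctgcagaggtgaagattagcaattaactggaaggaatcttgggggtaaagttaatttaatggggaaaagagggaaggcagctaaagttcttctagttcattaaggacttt
Alb (chr5:90460620-90460869, plus strand): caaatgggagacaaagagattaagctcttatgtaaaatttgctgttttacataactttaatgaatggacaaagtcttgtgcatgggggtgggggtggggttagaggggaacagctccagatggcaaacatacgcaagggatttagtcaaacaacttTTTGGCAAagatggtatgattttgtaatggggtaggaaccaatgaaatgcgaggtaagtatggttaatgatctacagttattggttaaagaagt
Fabp1 (chr6:71199629-71199878, plus strand): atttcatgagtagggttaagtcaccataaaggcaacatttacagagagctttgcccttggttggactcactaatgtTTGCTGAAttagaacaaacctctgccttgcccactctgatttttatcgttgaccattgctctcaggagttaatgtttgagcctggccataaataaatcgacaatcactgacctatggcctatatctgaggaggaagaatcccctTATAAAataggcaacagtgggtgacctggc
G6pc (chr11:101367466-101367715, plus strand): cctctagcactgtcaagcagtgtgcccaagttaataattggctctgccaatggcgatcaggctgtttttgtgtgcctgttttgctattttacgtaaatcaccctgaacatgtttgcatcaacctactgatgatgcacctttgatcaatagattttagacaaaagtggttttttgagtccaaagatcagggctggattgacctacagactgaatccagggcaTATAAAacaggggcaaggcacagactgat
The TATA box letters stood 31 bases before the start in Kap, 30 in Fabp1 and 29 in G6pc. The C/EBP letters stood in the Alb and Fabp1 promoters. None of the 4 motifs was found in the 250 bases of Slc34a1, which says only that these letters are not in that window. Over 300-base windows (250 before and 50 after the start), the HNF4 letters were in 0.487% of the promoters of genes called at least 4-fold higher in kidney, in 1.44% of those called at least 4-fold lower and in 0.528% of those of all tested genes. In the same 3 sets, the C/EBP letters were in 8.38%, 17.3% and 9.06%, the ERR letters in 0.108%, 0.481% and 0.282%, and the TATA box in 9.46%, 15.7% and 7.89%. Among all 32851 promoters of the RefSeq table the 4 motifs were in 0.475%, 10.8%, 0.423% and 13.6%, in the same order. These shares describe the letters and were not tested.

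Most genes were read at different levels in the organs. Of 14171 genes tested, 11057 were called at an adjusted p under 0.05, which is 78.0%. Of all tested genes, 40.2% (5698) were higher in kidney and 37.8% (5359) were lower in kidney. Every count of called genes in a list below is to be read beside these shares. Called differences of at least 4-fold were found in 3301 genes, of which 1940 (13.7% of those tested) were higher in kidney and 1361 (9.60%) were lower. The median log2 difference of all tested genes was 0.016, and 5135 called genes differed by less than 2-fold. With scaling by library size alone, the median moved to 0.68, so that 9039 genes were called higher and 2612 lower (2661 and 1028 at 4-fold). Differences near 0 below are therefore relative to TMM, and a difference of 4-fold (2 on the log2 scale) is larger than that shift.

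**Figure D2:**
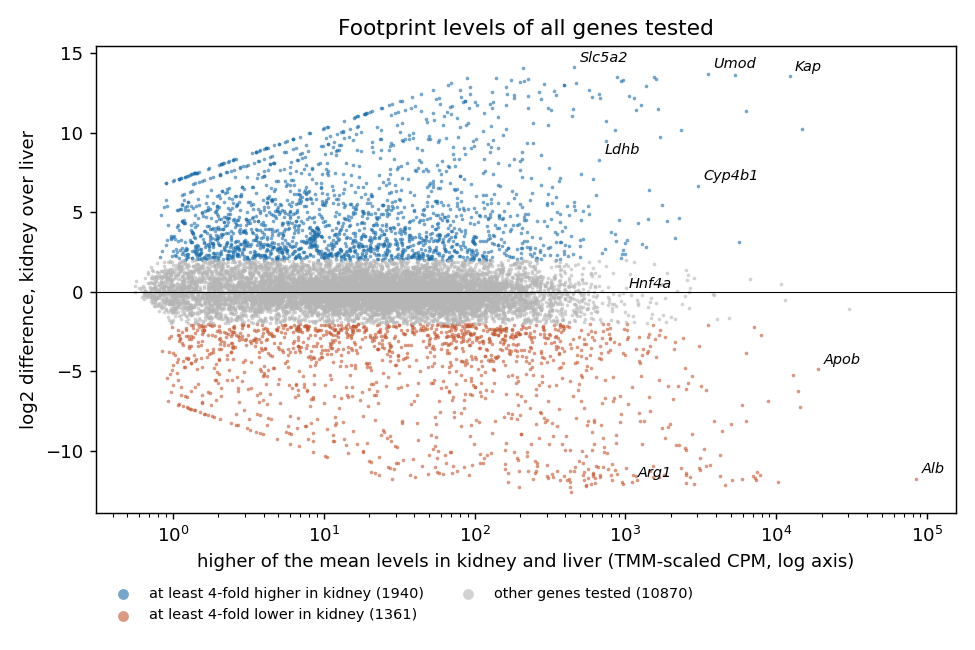
Log2 difference of footprint levels, kidney over liver, of the 14171 genes tested against the higher of the organs' mean levels in CPM (log axis); each point is 1 gene, with the 1940 genes called at least 4-fold higher in kidney and the 1361 called at least 4-fold lower in colour. Above 1000 CPM the genes lower in kidney outnumber those higher in kidney, with 101 genes against 27.

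The organs also differed in how footprints were spread over genes. The 100 genes with most counts in a library held 27.9% ± 1.52 of the counts in kidney (SD, n = 10) and 41.9% ± 3.20 in liver (SD, n = 18), a difference larger than the spread between libraries (two-sided permutation test with 100000 resamples, p = 1e-05, the smallest they can give). The 1940 genes called at least 4-fold higher in kidney took 19.1% to 26.3% (median 25.9%) of the counts of a kidney library and 0.641% to 1.53% (median 0.807%) of those of a liver library. The 1361 genes called at least 4-fold lower in kidney took 2.501% to 3.33% (median 2.96%) in kidney and 40.7% to 51.7% (median 48.6%) in liver. Of the 176 tested genes with a mean above 1000 CPM in either organ, 128 were called at 4-fold, and 101 of these were lower in kidney. For 1154 of the genes tested, the symbol did not match a protein coding gene of RefSeq. This set can include coding genes that RefSeq names otherwise. It took 6.79% to 18.002% (median 7.79%) of kidney counts and 5.48% to 19.5% (median 6.42%) of liver counts. Reads of the small stable RNAs Rpph1 and Rn7sk are among them. Both RNAs are among the genes with most kidney counts, so the shares of the 100 genes include such reads. The difference in these shares was not tested without them.

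Genes of the tubule were among those with most kidney counts. Gpx3, the plasma glutathione peroxidase that tubule cells secrete, held 1.98% of kidney counts and 0.00106% of liver counts (means), and Kap held 1.64% and 9.56e-05%. Lrp2 (megalin, the receptor that takes filtered proteins back) held 0.848% and 0.000202%. In liver the same place was taken by secreted and lipid genes: Alb with 0.00329% of kidney counts and 7.09% of liver counts, Apob, the protein of very-low-density lipoprotein, with 0.0873% and 1.60%, C3, the central complement protein, with 0.0128% and 1.23%, and Scd1, the stearoyl-CoA desaturase, with 0.0470% and 1.09%. A longer coding region collects more footprints, so these shares do not rank the proteins made. mt-Co1, a mitochondrially encoded subunit of cytochrome oxidase, was among the most counted genes of both organs, with 1.07% in kidney and 0.964% in liver.

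Segment markers of the nephron were higher in kidney in nearly every list. Of 38 proximal tubule markers tested, 34 were called higher and 3 lower, with a median log2 difference of 10.80. Of 16 thick ascending limb markers 15 were higher and 1 lower (median 11.95, or 11.58 with genes of no liver count at their bound), and of 19 genes of the distal convoluted and connecting tubule 17 were higher and 1 lower (median 6.17). Of 15 principal cell markers 13 were higher and 2 lower (median 10.03, or 9.61 with genes of no liver count at their bound), of 20 intercalated cell markers 19 were higher and none lower (median 9.11, or 8.75 with genes of no liver count at their bound), and of 19 podocyte and glomerulus markers 15 were higher and 2 lower (median 3.21). Of 14 markers of the thin limb of the loop of Henle and the papilla 11 were higher and 2 lower, with the lowest median of these lists (2.28). That list took a mean of 0.216% of kidney counts and 0.215% of liver counts. The lists were chosen with results of these data known, and each median stands beside 0.016 for all tested genes.

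Transporters of each segment separated the kidney libraries from the liver libraries. Slc5a2, the high-capacity sodium glucose cotransporter of the proximal tubule, had 253 to 551 CPM (median 494) in kidney, against 0 to 0.224 CPM (median 0) in liver, a log2 difference of 14.11 ± 0.25. Its neighbours on the proximal tubule followed the same pattern, with Slc22a6, a basolateral organic anion transporter, at 335 to 1270.1 CPM (median 1011) in kidney, against 0 to 1.01 CPM (median 0) in liver, and Slc22a12, the urate transporter, at 935 to 1938 CPM (median 1571) in kidney, against 0 to 1.23 CPM (median 0.0533) in liver. Cubn (cubilin, the partner of megalin) had 389 to 1698 CPM (median 1492) in kidney, against 0 to 1.34 CPM (median 0.0925) in liver. In the thick ascending limb, Slc12a1, the cotransporter that furosemide blocks, had 652 to 1188 CPM (median 856) in kidney, against 0 to 0.784 CPM (median 0) in liver, and in the distal convoluted tubule Slc12a3, the thiazide-sensitive cotransporter, had 606 to 914 CPM (median 744) in kidney, against 0 to 1.46 CPM (median 0.340) in liver. None of these kidney ranges touched the liver range. Aqp2, the vasopressin-regulated water channel of principal cells, had 147 to 312 CPM (median 184) in kidney and 3 counts over all liver libraries, a ratio of 14779-fold (exact 95% counting interval 5057 to 71666). Nphs1 (nephrin, of the filtration slit) had 19.7 to 45.6 CPM (median 28.3) in kidney and no count in liver, and Rhcg, an ammonia channel of intercalated cells, had 60.2 to 79.7 CPM (median 70.3) in kidney and none in liver; against 3 counts over all liver libraries, these were at least 2118-fold and at least 5229.98-fold higher in kidney.

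The opposite pattern held for plasma proteins. All 41 tested genes of plasma carriers and secreted proteins were called lower in kidney (median log2 difference −8.73), as were 22 of 25 coagulation genes, 23 of 25 complement genes and 20 of 22 apolipoprotein genes. The plasma protein list took 0.0401% to 0.0995% of the counts of a kidney library and 10.4% to 21.7% of those of a liver library. Fgb, a fibrinogen chain, had 0.292 to 4.92 CPM (median 1.60) in kidney, against 2176 to 6569 CPM (median 3687) in liver. F12, the coagulation factor that starts the contact pathway, had 0 to 0.663 CPM (median 0.0987) in kidney, against 467 to 782 CPM (median 687) in liver, and Hamp, the hormone hepcidin that limits iron uptake, had 0 to 0.442 CPM (median 0.114) in kidney, against 127 to 1229 CPM (median 535) in liver. Kidney levels of these genes were at or below a few CPM in all 10 libraries. The coagulation genes that went the other way included fibrinolysis genes: Plau, urokinase, had 259.6 to 753 CPM (median 658) in kidney, against 1.57 to 12.1 CPM (median 3.59) in liver, and Plat, the tissue plasminogen activator, had 20.5 to 64.7 CPM (median 51.4) in kidney, against 0.298 to 2.59 CPM (median 0.788) in liver, both called higher in kidney with log2 differences of 7.06 ± 0.26 and 5.62 ± 0.23. F3, tissue factor, was the third coagulation gene called higher, by 1.62 ± 0.15.

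Complement and lipoprotein genes were also mostly lower in kidney. The complement list had a median of −5.62, against −8.92 for the coagulation list. C9, a pore-forming component, had 0.0542 to 0.774 CPM (median 0.233) in kidney, against 275 to 871 CPM (median 509) in liver, a log2 difference of −10.77 ± 0.37. Apob had 409 to 947 CPM (median 628) in kidney, against 12413 to 24069.7 CPM (median 18541) in liver, a log2 difference of −4.87 ± 0.18, smaller than that of Alb. Apoe, the remnant-clearing apolipoprotein, differed by −6.25 ± 0.31. All 16 tested major urinary protein genes, pheromone carriers that liver secretes, were called lower in kidney (median −11.40, or −11.30 with genes of no kidney count at their bound). Mup3 had 0.0415 to 5.14 CPM (median 0.609) in kidney, against 443 to 7638 CPM (median 4600.4) in liver. Its lowest liver value was in the library that stands apart, and the lowest of the other liver libraries was 1711 CPM. The Mup genes are nearly the same in sequence, and how their reads were divided among them is uncertain.

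**Figure D3:**
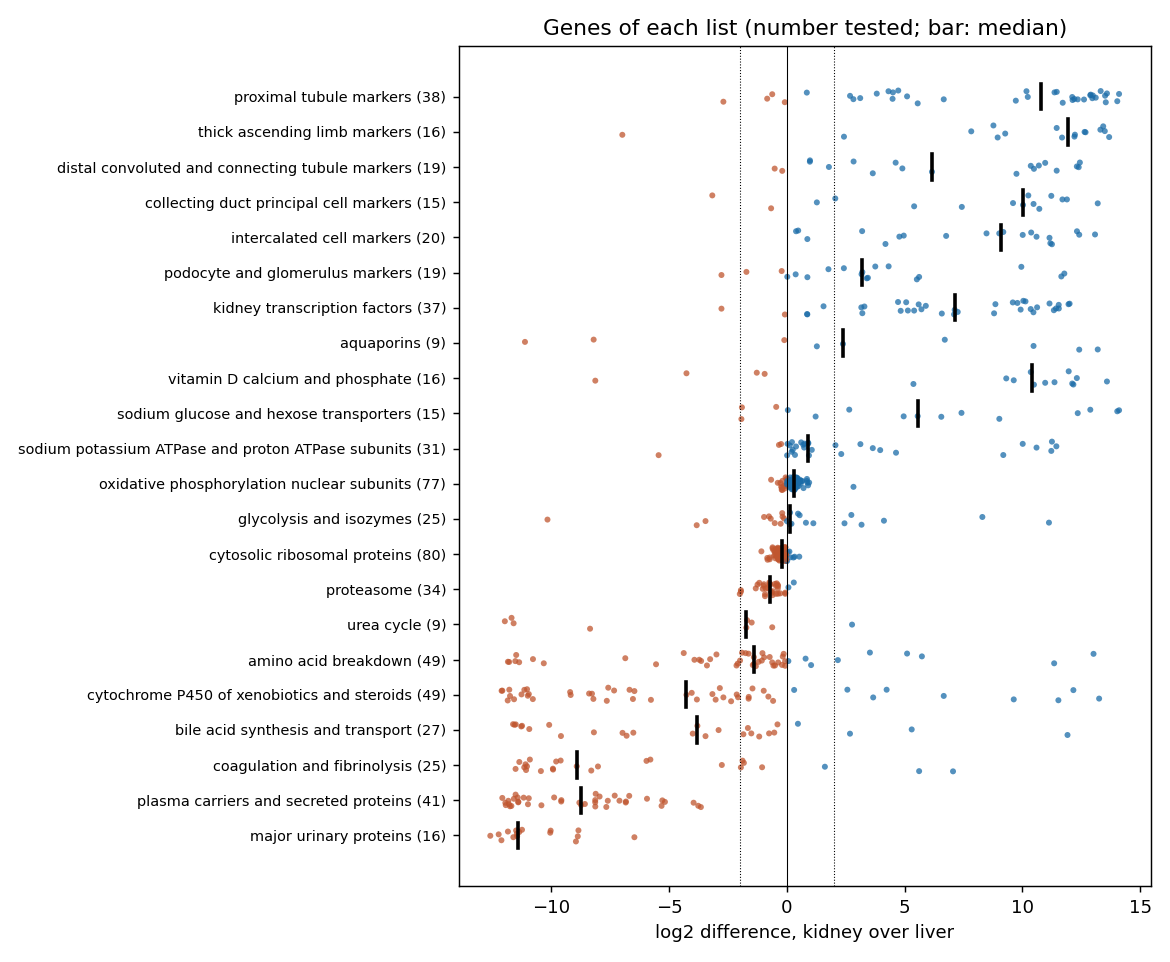
Log2 difference of footprint levels, kidney over liver, of every tested gene of 22 lists; each point is 1 gene, the black bar is the list's median and the dotted lines mark 4-fold. The nephron lists lie almost wholly to the right and the plasma protein, coagulation, bile acid and P450 lists to the left, while ribosomal proteins and oxidative phosphorylation lie close to 0.

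Genes with the most extreme differences were chosen to show how low a level the libraries record in the other organ, and the choice by difference itself sets levels of about this size. The 63 genes with at least 500 CPM in liver and a log2 difference below −10 had, in each kidney library, a median of 0.00483% to 0.122% of their mean liver level. The 23 genes with at least 500 CPM in kidney and a log2 difference above 10 had a median of 0% to 0.104% of their mean kidney level in the liver libraries. Other genes with high levels in liver were read well above this in kidney, such as Apob, Cyp2e1 and Scd1, described elsewhere with their values. In the fourth kidney library labelled 3 months the quartiles of the 63 ratios were 0.102% and 0.150%, and in the first kidney library labelled 32 months they were 0% and 0.0108%. Log2 differences near 10 and beyond rest on levels of this size in the lower organ, and the part of this low level in them was not tested.

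**Figure D4:**
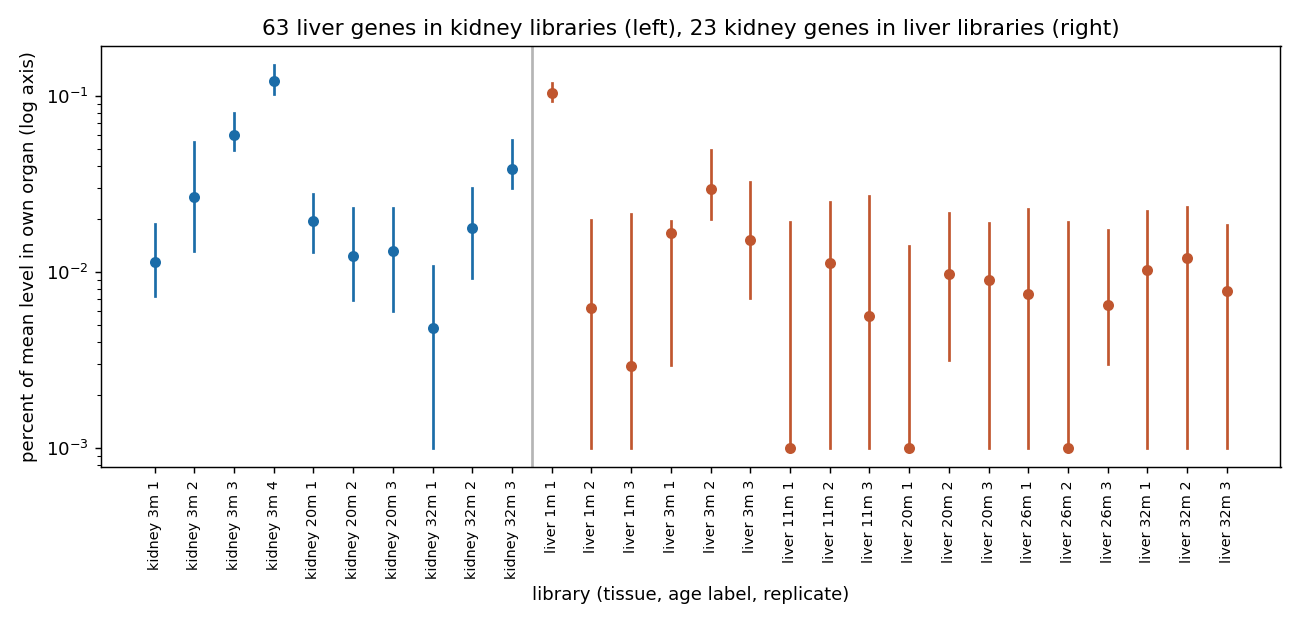
Level of organ-restricted genes in libraries of the other organ, as percent of their mean level in their own organ (log axis; values under 0.001% are drawn at 0.001%); points are the median over genes and bars the quartiles, with the 63 liver genes in the 10 kidney libraries to the left and the 23 kidney genes in the 18 liver libraries to the right. The kidney medians range from 0.00483% to 0.122% and the liver medians from 0% to 0.104%.

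Read strictly, 184 genes had at least 10 CPM in every kidney library and under 1 CPM in every liver library, and 111 genes had at least 10 CPM in every liver library and under 1 CPM in every kidney library. Genes of the kidney set with high mean levels included Cdh16 (kidney-specific cadherin), Slc12a1, Klk1 (tissue kallikrein), Slc7a13 (an aspartate and glutamate transporter) and Slc6a18 and Slc6a19 (neutral amino acid transporters). Those of the liver set included Fabp1 (liver fatty acid binding protein), Akr1c6 (a steroid dehydrogenase), C4bp (a complement regulator), Serpind1 (heparin cofactor) and Abcb11 (the bile salt export pump). Fabp1 had 0.0415 to 0.553 CPM (median 0.147) in kidney, against 138 to 2971 CPM (median 831) in liver, and Cdh16 had 441 to 1085 CPM (median 968) in kidney, against 0 to 0.896 CPM (median 0.0340) in liver.

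Both organs translated the glucose pathways, but for some steps through different members of an enzyme family. Of 25 glycolytic genes tested 10 were called higher in kidney and 6 lower, with a median of 0.13. The other 9 were not called, so the share called was below the 78.0% of all tested genes. At the first step, Hk1, the hexokinase of most tissues, had 95.8 to 182 CPM (median 118) in kidney, against 3.87 to 20.7 CPM (median 5.93) in liver. At the last step, Pklr, the liver and red cell pyruvate kinase, had 17.1 to 39.5 CPM (median 33.6) in kidney, against 114 to 593 CPM (median 313) in liver, and Pkm, the other pyruvate kinase gene, had 136 to 246 CPM (median 159) in kidney, against 11.99 to 91.8 CPM (median 18.1) in liver. The log2 differences were 4.13 ± 0.18 for Hk1, −3.45 ± 0.27 for Pklr and 2.74 ± 0.24 for Pkm, opposite within the pyruvate kinase pair.

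Genes of lactate dehydrogenase, aldolase and phosphofructokinase differed by unequal amounts. Ldhb, the heart-type subunit, had 388 to 760.3 CPM (median 685) in kidney, against 1.27 to 3.06 CPM (median 1.86) in liver, a difference of 8.30 ± 0.15, while Ldha, the muscle-type subunit, had 183 to 475 CPM (median 426) in kidney, against 412 to 959.9 CPM (median 568) in liver and was called lower in kidney, with ranges that overlap (−0.51 ± 0.13, edgeR adjusted p = 0.00106). That difference of Ldha turned to 0.16 with library-size scaling. Aldoa, the aldolase of muscle and many other tissues, differed by 2.45 ± 0.088. Pfkp and Pfkm, the platelet and muscle phosphofructokinases, were higher in kidney by 3.18 ± 0.19 and 1.13 ± 0.073, while Gapdh, with 188 to 417 CPM (median 336) in kidney, against 177 to 409.9 CPM (median 285) in liver, was not called. Pgam2, the muscle phosphoglycerate mutase, had 16.1 to 39.0 CPM (median 29.5) in kidney and 1 count over all liver libraries, a ratio of 6284-fold (exact 95% counting interval 1128 to 248264).

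Of 20 genes of gluconeogenesis and glycogen tested 7 were called higher in kidney and 10 lower, with 2 and 7 of these at 4-fold (median −0.40). Of all tested genes 40.2% were called higher and 37.8% lower, with 13.7% and 9.60% at 4-fold. The 3 that were not called take part in glucose release. G6pc, glucose-6-phosphatase, had 382 to 902 CPM (median 451) in kidney, against 155 to 1234 CPM (median 597) in liver, Pcx, pyruvate carboxylase, had 623 to 867 CPM (median 724) in kidney, against 604 to 1096 CPM (median 829) in liver, and Slc37a4, the carrier that brings glucose-6-phosphate to G6pc, had 48.0 to 304 CPM (median 260.3) in kidney, against 139.8 to 441 CPM (median 276) in liver. None of these 3 was called, with edgeR adjusted p-values of 0.296, 0.0781 and 0.295, which does not show that the levels are equal: the 95% intervals of the log2 differences ran from −0.77 to 0.22 for G6pc and from −0.34 to 0.0094 for Pcx. Pcx was called lower without the second kidney library labelled 20 months (−0.20) and without the first liver library labelled 3 months (−0.19). Pck1, the carboxykinase, had 995 to 2459 CPM (median 1397) in kidney, against 1651 to 8369 CPM (median 4794) in liver and was called lower in kidney (−1.67 ± 0.23), although the ranges overlap. Glycogen enzymes split by gene: Gys2, the liver glycogen synthase, had 6.01 to 22.9 CPM (median 17.4) in kidney, against 85.6 to 511 CPM (median 289) in liver, and Gys1, the muscle form, had 46.5 to 66.0 CPM (median 53.0) in kidney, against 2.08 to 4.94 CPM (median 2.75) in liver. Pygl, the liver phosphorylase, and Pygb, the brain form, differed by −4.64 ± 0.17 and 1.72 ± 0.18.

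**Figure D5:**
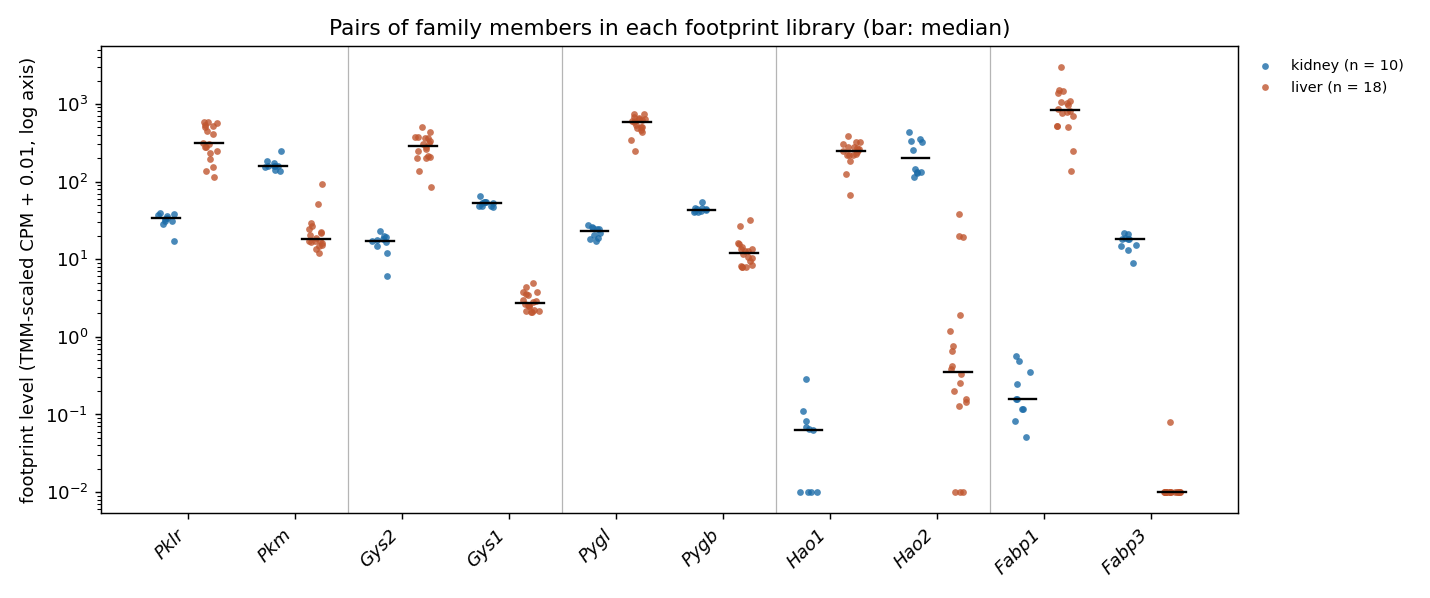
Footprint level in each library of 5 pairs of genes of one family, in CPM plus 0.01 on a log axis; each point is 1 library, kidney (10) to the left of liver (18) for every gene. In each pair the first gene is lower in kidney and the second higher, for example Gys2 at a median of 17.4 CPM in kidney and 289 CPM in liver, and Gys1 at 53.0 CPM in kidney and 2.75 CPM in liver.

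Of 27 genes of fatty acid oxidation and ketone bodies tested 17 were called lower in kidney and 5 higher (median −0.68), 7 of them at 4-fold, and the kidney and liver ranges of 11 did not overlap. The shares at 4-fold and without overlap lie near those of all 14171 genes tested, where 3301 were called at 4-fold and 5108 had separate ranges. Single genes of nitrogen, ketone and fat metabolism differed far more. Gls2, the liver glutaminase, had 0.220 to 0.995 CPM (median 0.310) in kidney, against 253 to 975 CPM (median 586) in liver, and Oxct1, which tissues need to burn ketone bodies, had 450.4 to 829 CPM (median 639.6) in kidney, against 3.51 to 48.6 CPM (median 6.60) in liver. Hao1 and Hao2, hydroxyacid oxidases of the peroxisome, differed by −11.79 ± 0.39 and 5.74 ± 0.79. In liver, Hao2 had 37.8, 19.0 and 20.1 CPM in the 3 libraries labelled 11 months and at most 1.89 CPM in the other liver libraries. Over the age labels that both organs share its log2 difference was 8.64. Fabp1 was lower in kidney (log2 difference −12.10 ± 0.59), and Fabp3, the heart-type fatty acid binding protein, had 8.79 to 22.0 CPM (median 18.2) in kidney and 1 count over all liver libraries, a ratio of 3721-fold (exact 95% counting interval 667 to 147020).

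Genes of the urea cycle were lower in kidney by very different amounts. Of 9 genes tested, 8 were called lower in kidney and 1 higher, and 4 were at least 4-fold lower. Cps1, the mitochondrial entry enzyme, had 0.108 to 9.50 CPM (median 1.23) in kidney, against 5015 to 10397 CPM (median 7281) in liver, Otc had 0 to 0.718 CPM (median 0.0454) in kidney, against 162 to 544 CPM (median 391) in liver, and Arg1, the arginase that releases urea, had 0.0542 to 1.05 CPM (median 0.162) in kidney, against 787 to 1339 CPM (median 1089.9) in liver. Nags, which makes the activator of Cps1, differed by −8.35 ± 0.21. The middle steps, with which the kidney makes arginine from citrulline, stood much closer: Ass1 had 338 to 1248 CPM (median 961) in kidney, against 689 to 2095 CPM (median 1506) in liver, Asl had 165 to 266 CPM (median 212) in kidney, against 456 to 1105 CPM (median 664) in liver, and their log2 differences were −0.62 ± 0.18 and −1.72 ± 0.13, that of Ass1 turning to 0.057 with library-size scaling. Arg2, the mitochondrial arginase, was the gene called higher, at 0.912 to 4.97 CPM (median 2.41) in kidney, against 0.0779 to 1.11 CPM (median 0.296) in liver.

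Amino acid breakdown was lower in kidney for most steps. Of 49 genes tested 35 were called lower and 8 higher (median −1.40). Tat, Hal and Tdo2, the first enzymes of tyrosine, histidine and tryptophan breakdown, had log2 differences of −11.52 ± 0.66, −11.49 ± 0.47 and −11.84 ± 0.50. The genes higher in kidney included Dao, D-amino acid oxidase, at 193 to 333 CPM (median 294) in kidney, against 0 to 0.336 CPM (median 0) in liver, and Bcat2, which starts branched-chain breakdown, at 54.9 to 67.5 CPM (median 61.0) in kidney, against 9.51 to 17.2 CPM (median 13.7) in liver. Uox, the urate oxidase that mice keep, differed by −12.00 ± 0.54.

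Lipid synthesis and bile acid genes were mostly lower in kidney. Of 23 genes of fatty acid synthesis 18 were lower and 4 higher (median −2.44), and of 21 genes of cholesterol synthesis 18 were lower and 2 higher (median −2.21). Scd1 had 103 to 743 CPM (median 291) in kidney, against 4045 to 27980 CPM (median 9510.4) in liver, while Scd2, its relative, had 51.2 to 129 CPM (median 101) in kidney, against 9.11 to 56.3 CPM (median 12.9) in liver and was called higher in kidney by 2.47 ± 0.23. Of 27 genes of bile acid synthesis and transport 22 were lower and 4 higher. Cyp7a1, the rate-limiting enzyme of bile acid synthesis, had 0 to 0.582 CPM (median 0.0183) in kidney, against 108 to 466 CPM (median 256) in liver, and Abcb11 had 0 to 0.553 CPM (median 0.191) in kidney, against 268 to 978 CPM (median 667) in liver. Slc10a2, the bile acid uptake carrier of ileum and kidney tubule, had 8.04 to 24.8 CPM (median 16.5) in kidney, against 6.28 to 54.2 CPM (median 20.1) in liver and was the gene of that list that was not called, although it was without the second liver library labelled 11 months (log2 difference −0.59).

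Genes that clear foreign compounds were translated in both organs as different sets. Of 49 cytochrome P450 genes tested 38 were lower in kidney and 8 higher (median −4.26), and of 50 conjugation genes 35 were lower and 12 higher (median −2.25). Cyp2e1, which oxidises ethanol, had 286 to 1586 CPM (median 1290.4) in kidney, against 4317 to 11563 CPM (median 7168) in liver, while Cyp1a2 and Cyp2c29 differed by −11.14 ± 0.54 and −12.07 ± 0.61. Cyp4b1 went the other way, at 429 to 4178 CPM (median 3276) in kidney, against 20.6 to 36.5 CPM (median 30.0) in liver. The Cyp2c genes are close copies, so the split of reads among them is uncertain. Of 36 organic anion and cation transporters 21 were higher in kidney and 12 lower: Slc22a8, a basolateral anion exchanger, was higher by 12.97 ± 0.31, and Slco1b2, the hepatocyte uptake carrier, was lower (log2 difference −11.51 ± 0.46).

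Water and sugar transporters separated by organ. Of 9 aquaporins tested 6 were called higher in kidney and 2 lower. Aqp1, the water channel of the proximal tubule and thin limb, had 809 to 1104 CPM (median 931) in kidney, against 149 to 242 CPM (median 179) in liver, and Aqp3, on the basolateral side of principal cells, had 33.3 to 109.5 CPM (median 88.4) in kidney, against 0 to 0.238 CPM (median 0) in liver. Aqp9, the glycerol and urea channel of hepatocytes, had 0.0542 to 0.793 CPM (median 0.176) in kidney, against 379 to 728 CPM (median 581) in liver, and Aqp8 had 0.0415 to 0.876 CPM (median 0.333) in kidney, against 29.1 to 266 CPM (median 80.9) in liver. Aqp6, an intercalated cell channel, had 37.8 to 60.1 CPM (median 43.9) in kidney and no count in liver, at least 3284-fold higher. Aqp7, a glycerol channel, was higher by 6.71 ± 0.50 with separate ranges, and Aqp4 by 1.28 ± 0.43 with ranges that overlap. Aqp11, an intracellular member, had 18.1 to 78.4 CPM (median 67.6) in kidney, against 36.6 to 95.5 CPM (median 70.9) in liver without a call.

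Of 15 sodium glucose and hexose transporters tested 11 were higher in kidney and 3 lower. Slc5a1, the high-affinity glucose cotransporter of the late proximal tubule, had 17.9 to 96.4 CPM (median 81.4) in kidney, against 0.399 to 5.97 CPM (median 1.504) in liver, and Slc5a10, a mannose and fructose carrier, had 33.5 to 194 CPM (median 174) in kidney and 3 counts in liver, a ratio of 11921-fold (exact 95% counting interval 4079 to 57809). The exit carrier Slc2a2, shared by proximal tubule and hepatocytes, had 38.5 to 239 CPM (median 195) in kidney, against 282 to 973 CPM (median 706) in liver. Slc2a5, the fructose carrier, was higher by 2.65 ± 0.25, Slc2a1, the carrier of most cells, by 1.23 ± 0.10, Slc2a4, the insulin-responsive carrier of muscle and fat, by 4.96 ± 0.33, and Slc2a12 by 6.56 ± 0.26. Slc2a9, a urate carrier, and Slc2a8 were lower, with log2 differences of −1.90 ± 0.11 and −0.45 ± 0.087, that of Slc2a8 turning to 0.22 with library-size scaling, and Slc2a3 was not called.

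Pump subunits were mostly higher in kidney. Of 31 subunits of the sodium pump and the proton pump tested 22 were called higher in kidney and 2 lower (median 0.91). Atp1b1, the beta subunit of the sodium pump, had 1399 to 2713 CPM (median 2332) in kidney, against 35.9 to 148 CPM (median 85.3) in liver, and the pump regulator Fxyd2 had 1027 to 1380.4 CPM (median 1163) in kidney, against 0 to 2.08 CPM (median 0.144) in liver. Fxyd1, the regulator of heart and muscle, went the other way, with 1.49 to 3.37 CPM (median 2.00) in kidney, against 56.5 to 169 CPM (median 90.6) in liver. Atp6v0a4, the proton pump subunit of intercalated cells and proximal tubule, had 193 to 274 CPM (median 247) in kidney, against 0 to 0.448 CPM (median 0.147) in liver, and Atp6v1a, a subunit of every proton pump, differed by 2.07 ± 0.13.

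Vitamin D and phosphate handling were divided between the organs. Of 16 genes tested 12 were called higher in kidney and 4 lower (median 10.43). Gc, the plasma carrier of vitamin D, had 9.37 to 58.9 CPM (median 17.2) in kidney, against 4293 to 7835 CPM (median 6467) in liver, and Cyp2r1, the 25-hydroxylase, had 0.712 to 1.88 CPM (median 1.34) in kidney, against 17.7 to 31.4 CPM (median 24.5) in liver. The kidney enzymes that activate and break down the hormone were read in kidney: Cyp27b1, the 1-alpha-hydroxylase, had 3.07 to 36.2 CPM (median 10.9) there and 2 counts in liver, a ratio of 1547-fold (exact 95% counting interval 428 to 12780.5), and Cyp24a1, the 24-hydroxylase, had 86.9 to 381 CPM (median 169.9) in kidney, against 0 to 0.560 CPM (median 0) in liver. Vdr, the receptor, had 179 to 248 CPM (median 229) in kidney, against 0 to 1.69 CPM (median 0.136) in liver, and Kl (klotho, the coreceptor of the phosphate hormone FGF23) had 388 to 1311 CPM (median 1124) in kidney, against 0 to 1.90 CPM (median 0.0940) in liver. Calb1 and S100g, the calcium-binding proteins of the distal nephron, were higher by 10.97 ± 0.24 and 10.49 ± 0.40, Pth1r, the parathyroid hormone receptor, by 5.38 ± 0.11, and Casr, the calcium sensor, had 66.1 to 129 CPM (median 83.8) in kidney and 3 counts in liver.

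The renin system was split in the same way. Agt, the angiotensinogen that liver secretes, had 33.5 to 71.3 CPM (median 59.4) in kidney, against 393 to 932 CPM (median 806) in liver, Ren1, renin, had 10.4 to 79.1 CPM (median 39.2) in kidney, against 0 to 0.242 CPM (median 0) in liver, and Ace, the converting enzyme, had 111 to 454 CPM (median 309.5) in kidney, against 1.80 to 17.7 CPM (median 3.33) in liver. Enpep, an aminopeptidase that cleaves angiotensin II, had 54.4 to 141 CPM (median 121) in kidney, against 84.5 to 183 CPM (median 142) in liver without a call. Of 15 genes of this list tested 10 were higher in kidney and 3 lower, against 40.2% and 37.8% of all tested genes.

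Transcription factors named for one organ were mostly read there. Of 37 kidney factors tested 35 were called higher and 1 lower (median 7.13), and of 22 liver factors 18 were lower and 3 higher (median −3.62). Pax8, a factor of the developing and adult tubule, had 67.6 to 114 CPM (median 80.4) in kidney, against 0 to 1.70 CPM (median 0.300) in liver, and Hoxa10 and Tfap2b had no count in liver and were at least 2474-fold and at least 2398-fold higher in kidney. Foxa2 and Foxa3, which open liver enhancers, had 0 to 0.159 CPM (median 0) in kidney, against 15.3 to 43.5 CPM (median 21.3) in liver, and 0.0543 to 0.497 CPM (median 0.0957) in kidney, against 54.5 to 147 CPM (median 92.2) in liver. Hnf4a, a factor of both organs that the kidney list also holds, had 740.3 to 1322 CPM (median 862) in kidney, against 705 to 1488 CPM (median 919) in liver, and its interval lay between −0.5 and 0.5.

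Lists of machinery common to all cells had few differences of at least 4-fold, except for the peroxisomal and lysosomal lists. Of 80 cytosolic ribosomal proteins tested 38 were called lower in kidney and 1 higher, with a median of −0.22, and 43 had intervals wholly between −0.5 and 0.5; with library-size scaling the median turned to 0.45. Of 77 nuclear subunits of oxidative phosphorylation 38 were higher and 2 lower (median 0.29), and 16 of 28 citric acid cycle genes were higher and 5 lower (median 0.39). As mean shares of counts, which TMM does not scale, oxidative phosphorylation took 2.10% in kidney and 1.04% in liver. The citric acid cycle took 0.942% in kidney and 0.470% in liver. Of 53 genes of the endoplasmic reticulum and secretory path 43 were lower and 2 higher (median −0.87, and −0.21 with library-size scaling). Of 34 proteasome genes 29 were lower and 1 higher (median −0.69, and −0.02 with library-size scaling). Of 41 peroxisomal genes 32 were lower and 6 higher (median −1.17), and at 4-fold 10 were lower and 4 higher, against 9.60% and 13.7% of all tested genes. Of 32 lysosomal genes 12 were higher and 11 lower (median −0.072), and at 4-fold 5 were higher and 4 lower, against 13.7% and 9.60% of all tested genes. Across the 5 lists of this paragraph other than the peroxisomal and lysosomal, 9 of 272 genes tested were called at 4-fold.

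A set of 2482 genes had like levels, with 95% intervals of the log2 difference wholly between −0.5 and 0.5. Those with the highest levels were Tmbim6, a membrane protein of the endoplasmic reticulum, Eef2, the elongation factor that moves the ribosome along, Sord, sorbitol dehydrogenase, Itm2b, Hnf4a and the lysosomal membrane protein Lamp1. Eef2 had 1771 to 4102 CPM (median 1956) in kidney, against 1751 to 2513 CPM (median 2192) in liver, and its highest kidney value was in the library that stands apart. Tmbim6 had 2445 to 3137 CPM (median 2669.7) in kidney, against 1606 to 3009 CPM (median 2259) in liver, with ranges that overlap. Its small difference was called higher in kidney (0.27 ± 0.09, edgeR adjusted p = 0.00825), was 0.94 with library-size scaling, and was not called with age label as a covariate (0.19). Common reference genes were not all level: B2m, the light chain of class I histocompatibility molecules, had 19.3 to 267 CPM (median 137) in kidney, against 1073 to 2238 CPM (median 1431) in liver, and was called lower in kidney (−3.43 ± 0.24). Actb, a cytoplasmic actin, had 437 to 1395 CPM (median 1232) in kidney, against 986 to 2458 CPM (median 1458) in liver, a log2 difference of −0.36 ± 0.15 that was called but turned to 0.29 with library-size scaling. Without the second kidney library labelled 3 months it was −0.27 and without the first liver library labelled 3 months −0.31, and neither was called.

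Markers of some other cell types differed between the organs too, where 40.2% of all tested genes were called higher in kidney and 37.8% lower. Among B and plasma cell markers 9 of 14 were not called, and among erythroid markers 4 of 6. Of 24 macrophage and Kupffer cell markers tested 20 were called lower in kidney and 1 higher, and all 11 sinusoidal endothelial markers were lower. The macrophage list took 0.0559% to 0.139% of the counts of a kidney library and 0.0612% to 0.771% of those of a liver library, and the sinusoidal list 0.0116% to 0.0186% in kidney and 0.0570% to 0.0983% in liver. Clec4f, which marks Kupffer cells, had 0 to 1.12 CPM (median 0.0395) in kidney, against 95.8 to 1311 CPM (median 148) in liver, with the highest liver value in the liver library that stands apart, and Stab2, a scavenger receptor of sinusoids, had 4.44 to 10.4 CPM (median 6.29) in kidney, against 133 to 194 CPM (median 153) in liver. Of 14 general endothelial markers 8 were higher and 4 lower (median 0.41). Fat cell markers were read in kidney, with 4 of 7 tested called higher and none lower: Plin1, a lipid droplet protein, had 1.76 to 58.0 CPM (median 22.0) in kidney, against 0 to 0.690 CPM (median 0) in liver, and Adipoq had 1.48 to 36.2 CPM (median 11.0) in kidney and 3 counts in liver. The summed share of that list was 0.0182% to 0.0981% in kidney and 0.00827% to 0.0213% in liver. Of 8 bile duct markers 7 were higher in kidney, among them Krt7 at 51.9 to 123 CPM (median 63.1) in kidney, against 0.0416 to 1.13 CPM (median 0.706) in liver, and Epcam with a log2 difference of 5.70 ± 0.18. The collecting duct also makes both. Of 14 B and plasma cell markers tested 1 was higher and 4 lower, with 0.00249% to 0.277% of kidney counts and 0.00122% to 0.126% of liver counts. None of 8 neutrophil markers passed the filter on low counts, and of 6 erythroid markers tested 1 was higher and 1 lower. The part of these cell types in the gene lists above was not tested.

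Both organs have libraries labelled 3, 20 and 32 months. Age labels were taken as given, and whether they hold each animal's true age is in doubt. The 3301 genes called at 4-fold were chosen on these same libraries together with the rest, so their directions within a label are a description and no separate check: 3297 kept their direction among the libraries labelled 3 months, 3292 at 20 months and 3294 at 32 months, and 3127 were called in that direction in all 3. A test of whether the organ difference itself changed over these labels (the interaction of organ and age label, edgeR, 19 libraries) called 10 of 14090 genes, and 1725 had an unadjusted p under 0.05. Of these 10, G0s2, an inhibitor of fat breakdown, had means of 29.4 CPM in kidney and 25.1 CPM in liver at 3 months, 19.8 CPM in kidney and 161 CPM in liver at 20 months and 21.6 CPM in kidney and 149 CPM in liver at 32 months (edgeR adjusted p = 0.0194). Vdr had 226 CPM in kidney and 1.24 CPM in liver at 3 months, 260.5 CPM in kidney and 0.0532 CPM in liver at 20 months and 238 CPM in kidney and 0.256 CPM in liver at 32 months. In both genes the kidney means changed less, as a ratio, than the liver means. The liver levels of Vdr lay near the floor, with 0.140, 0 and 0 CPM in the 3 libraries labelled 20 months (scaled over all 28 libraries). The other 8 were Slc1a5, Gprc5b, Acmsd, Fmn1, Tes, Pltp, Slc39a5 and Dusp6, named after their values were seen. This count depended on single libraries: 586 genes were called without the third liver library labelled 3 months, 45 without the second kidney library labelled 3 months, 32 without the first liver library labelled 32 months, and none without the second kidney or the second liver library labelled 20 months. With each of the other libraries left out it was 1 to 11. Without the 2 libraries that stand apart 69 genes were called, and DESeq2's likelihood-ratio test called 394.

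The calls were also taken without the 2 libraries that stand apart. They then numbered 11564, with 5923 higher in kidney and 5641 lower, and 3328 were called at 4-fold. Kap was then at 6849 CPM or more in every kidney library, with a log2 difference of 13.62, and Clec4f was at 345 CPM or less in every liver library, with −10.87. The median of the proximal tubule list was 10.84 and that of the plasma protein list −8.75.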

How the data were processed

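Ribosome footprints were made from frozen kidney and liver, with lysates digested by RNases T1 and S7, per the labels' protocols. Reads were trimmed with cutadapt 1.14 and aligned with STAR 2.5.3 to mm10, per the submitters' processing notes. Which tool counted reads, with which strand setting and annotation, is not given in the sources used here. The authors deposited raw counts per Ensembl gene identifier, not normalized, in 1 table: 50222 identifiers, of which 49998 were matched to a symbol and 136 share one. The 28 footprint columns were used, and 28 further per-sample columns, which hold RNA libraries, were not.

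From the counts, edgeR 4.0.16 (R 4.3.3) fitted organ with no covariate over all 28 libraries (filterByExpr minimum count 10, TMM, robust quasi-likelihood F test, two-sided). Genes were called at a Benjamini-Hochberg adjusted p under 0.05 over all genes tested. SE was taken as the size of the log2 difference over the root of its F value. Groups follow the labels' tissue and kind of library. n counts libraries, which the labels do not tie to separate animals, so p-values measure the spread between libraries.

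Many genes were named by rule: the 6 given markers, the genes with most counts in each organ, the largest differences with ranges that do not overlap and the most changed members of each list. The rule also took any member of the aquaporin, sugar transporter, glycolysis, urea cycle and vitamin D lists, and the genes of like level with the highest levels. Others, among them Actb, Agt, Cubn, Cyp4b1, Enpep, G6pc, Gys2, Hao2, Pck1, Pygb, Scd2 and Trf, were named outside that rule. The members and lists were chosen with earlier results of these data known. The age interaction used the 19 libraries of labels both organs share. Alternatives were other scalings, filters, DESeq2 1.42.0, left-out libraries, an age covariate and a replicate block, and fits within an age label were added after seeing the data.

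Counts differed between libraries by more than sampling noise, with a chi-square per degree of freedom of at least 7.49 between kidney and 12.1 between liver libraries, so none was counted as a duplicate. Kidney and liver libraries of one age label and number (9 pairs) deviated together in 1 of 9 at a correlation over 0.1, so the numbers were not used as pairs. Floors of 3 counts and exact 95% intervals cover counting error only. The fit was run on simulated counts in which most genes had the same mean level in both organs and none differed by more than 4-fold. That run does not cover organs that differ in as many genes, or by as much, as these. Promoters are RefSeq's (GRCm38.p6). Some genes are not reported here.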

Additional observations from a re-analysis of the deposited data

Results flagged for a closer look

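In each group of 10 kidney libraries, a value was picked out when its gap to the nearest other library as a share of the whole range was above Dixon's 95% critical value for 10 values, which chance brings about in about 1 in 20 groups. Of 147 groups tested (the printed genes and the share of counts in the 100 genes with most counts), 70 held such a value, 50 of them in the second kidney library labelled 3 months and 13 in the fourth. Groups of 18 liver libraries were not tested.

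The second kidney library labelled 3 months, which stands apart from the other kidney libraries, was the lowest for 37 genes: Actb at 437, Aldoa at 446, Aqp11 at 18.1, Aqp3 at 33.2, Aqp7 at 8.29, Ass1 at 338, Atp1b1 at 1399, Atp6v0a4 at 193, Atp6v1a at 119, Car4 at 38.1, Cdh16 at 441, Cldn10 at 35.6, Cldn2 at 305, Cubn at 389, Cyp2e1 at 286, Dao at 193, Enpep at 54.4, Gapdh at 188, Hoxa10 at 18.5, Kl at 388, Ldha at 184, Ldhb at 388, Mep1a at 468, Pklr at 17.1, Plau at 259.6, S100g at 134, Slc22a8 at 165, Slc2a12 at 7.96, Slc2a2 at 38.5, Slc2a5 at 26.5, Slc34a1 at 2633, Slc37a4 at 48.0, Slc40a1 at 20.9, Slc4a4 at 829, Slc5a1 at 17.9, Slc5a10 at 33.5 and mt-Co1 at 1024 CPM. It was the highest for 12 genes: Apoe at 521, C3 at 269, Casr at 129, Clec4f at 1.12, Eef2 at 4102, Gys1 at 66.0, Hk1 at 182, Hnf4a at 1322, Krt7 at 123, Nphs1 at 45.6, Pax8 at 114 and Pkm at 246 CPM. Its 100 genes with most counts held 31.8% of its counts.

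The fourth kidney library labelled 3 months was the highest for 13 genes: Alb at 96.7, Arg1 at 1.05, Cps1 at 9.50, Cyp1a2 at 1.93, Cyp2c29 at 3.09, G6pc at 902, Hao1 at 0.276, Mup3 at 5.14, Otc at 0.718, Slco1b2 at 1.60, Star at 43.9, Tat at 3.59 and Uox at 3.09 CPM. Apart from Star, which serves steroid synthesis, and G6pc, these genes were called at least 4-fold lower in kidney. The third kidney library of the same label was the highest for Cyp7a1 at 0.582 and Gc at 58.9 CPM and the lowest for Pth1r at 434 CPM. The first kidney library labelled 20 months was the highest for Aqp2 at 312 and Pygb at 54.6 CPM, and the second for Aqp6 at 60.1 and Ren1 at 79.1 CPM.

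The organ difference itself depended on the age label for 10 genes by edgeR's test of the interaction of organ and age label. Their number changed with single libraries, as given above for the age labels.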

How the results depend on the processing

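The count of genes called stayed between 9148 and 15144 under the alternatives planned, and was 6982 within the 3-month label, where 7 libraries were tested. Genes called at 4-fold numbered 5983 with no filter on low counts and 5227 by DESeq2, both of which tested more genes, and 2458 to 3689 under the others. Library-size scaling gave 9039 genes higher in kidney and 2612 lower (2661 and 1028 at 4-fold). Leaving out each library in turn gave 10935 to 11453 genes called, 3267 to 3353 at 4-fold and a difference in the 100-gene share of −14.44 to −13.55 percentage points. With the replicate block, 9673 genes were called and 3194 at 4-fold, but same-numbered libraries deviated together little (correlations from −0.23 to 0.14, mean −0.037), and the numbers pair libraries only by name. Genes of like level numbered 6366 with limits of −1 and 1 and 1564 with library-size scaling. Genes called for the age interaction numbered 69 without the 2 libraries that stand apart, 394 by DESeq2 and 0 to 586 with a library left out; the cause was not tested.

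With library-size scaling, which moved the median of all genes up, log2 differences turned to 0.29 for Actb, 0.57 for Aqp11, 0.057 for Ass1, 0.46 for Enpep, 0.40 for G6pc, 0.59 for Hnf4a, 0.16 for Ldha, 0.51 for Pcx, 0.11 for Slc10a2, 0.22 for Slc2a8, 0.44 for Slc37a4 and 0.15 for mt-Co1. Hnf4a was 0.016 with upper-quartile scaling and 0.012 without the libraries labelled 32 months. Eef2 was −0.12 without the 2 libraries that stand apart, −0.016 over the labels both organs share, −0.044 with the age covariate and −0.066 with the replicate block. Star was −0.41 by DESeq2. With a library left out, log2 differences ran over −0.14 to 0.0066 for Aqp11, −0.12 to 0.053 for Eef2 and −0.42 to 2.81 for Star. Except for library-size scaling, the cause was not tested. Of the other values of named genes, 1837 kept their direction and call, 14 lost their call and 7 gained one under the alternatives other than left-out libraries. Depth limits genes with few counts in one organ, whose large log2 differences depend on the prior count of the fit.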

Other observations

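Genes of iron handling and of methyl group metabolism were mostly lower in kidney, where 37.8% of all tested genes were lower and 40.2% higher. Of 23 genes of iron and heme handling tested 18 were called lower in kidney and 3 higher (median log2 difference −1.29). Trf, the plasma iron carrier transferrin, had 2.63 to 7.79 CPM (median 4.17) in kidney, against 1095 to 2327 CPM (median 1761) in liver, and Slc40a1, the iron exporter ferroportin, had 20.9 to 65.9 CPM (median 49.6) in kidney, against 210.4 to 688 CPM (median 281) in liver. Fth1, the heavy chain of the iron store ferritin, went the other way, with 2279.8 to 2969 CPM (median 2652) in kidney, against 992 to 2043 CPM (median 1225) in liver. Of 20 genes of methionine and one-carbon metabolism 16 were lower in kidney and 4 higher. Mat1a, which makes the methyl donor S-adenosylmethionine in liver, had 0.108 to 5.08 CPM (median 0.501) in kidney, against 2399 to 6027 CPM (median 4004) in liver, and Gnmt, a methyltransferase that uses it up, had 11.2 to 28.5 CPM (median 19.9) in kidney, against 948 to 3137 CPM (median 2183) in liver. Of 19 claudin and tight junction genes 9 were higher in kidney and 5 lower, a share called below the 78.0% of all tested genes. Cldn2 and Cldn10, claudins of the proximal tubule and of the thick ascending limb, had log2 differences of 2.28 ± 0.14 and 9.27 ± 0.35, while Cldn14 had 0 to 0.276 CPM (median 0.0472) in kidney, against 6.94 to 15.2 CPM (median 9.73) in liver and was the thick ascending limb marker called lower in kidney.

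Enzymes of the brush border, the cell surface of the proximal tubule, were mostly higher in kidney, with 15 of 20 tested called higher and 2 lower (median 6.09). Ggt1, which splits glutathione in the filtrate, had 646 to 1366 CPM (median 1213) in kidney, against 0 to 1.46 CPM (median 0.0884) in liver, and Mep1a, a meprin protease, had 468 to 1905 CPM (median 1742) in kidney, against 0 to 1.57 CPM (median 0) in liver. Dpp4, a peptidase of both organs, had 14.9 to 32.5 CPM (median 26.6) in kidney, against 102 to 184 CPM (median 148) in liver and was called lower in kidney. Of 19 genes of ammonia and acid-base handling 11 were higher in kidney and 8 lower: Slc4a4, the bicarbonate cotransporter of the proximal tubule, had 829 to 1531 CPM (median 1420.4) in kidney, against 132 to 245 CPM (median 194) in liver, and Car4, a membrane carbonic anhydrase, had 38.1 to 157 CPM (median 138) in kidney, against 0 to 0.238 CPM (median 0) in liver. Selenop, the plasma selenium carrier that liver secretes, was lower in kidney (log2 difference −2.19 ± 0.21), while Gpx3, the secreted glutathione peroxidase, was higher (10.23 ± 0.35).

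Of 10 adrenal gland markers 2 passed the filter on low counts. Star, which brings cholesterol into mitochondria for steroid synthesis, had 0.220 to 43.9 CPM (median 0.486) in kidney, against 0.272 to 1.52 CPM (median 0.710) in liver, and its highest kidney value was in the fourth kidney library labelled 3 months. Its log2 difference of 2.66 ± 0.68 was called, but was −0.42 without that library. The adrenal list took 0.000155% to 0.0356% of the counts of a kidney library and 3.76e-05% to 0.000643% of those of a liver library. Of 15 exocrine pancreas markers 2 were tested and 1 was called higher in kidney. Of 9 T and NK cell markers tested 2 were lower in kidney and none was higher.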
